A study of Mus musculus with 4 samples.

Results

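The box C/D small nucleolar RNA (snoRNA) rows of a TPM table of BEKO cells, a mouse thymic lymphoma line, are described here. They are the rows whose symbol begins with Snord and a digit, 72 of 25630 rows (0.281%). The rows were chosen by symbol, and the class itself was selected on measured values, since it was put forward with the TPM of high against low density already known. The snoRNA values therefore describe that comparison. No test is given for any snoRNA row, and counts of rows past a threshold stand only beside the same share over all rows. RNA came from 2 libraries of cells at high density and 2 libraries of cells at low density. All 4 libraries are of the same line and carry the genotype label WT, and the labels give no cell number, medium, treatment or culture time. Separate cultures are not stated for any library, so errors and p-values measure only the spread between libraries, which may be technical. TPM is abundance per unit of row length, scaled here to 1000000 in each library.

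Box C/D snoRNAs guide 2′-O-methylation of ribosomal RNA and of some spliceosomal RNAs. Each carries a box C near its 5′ end and a box D near its 3′ end, which are bound by Snu13, Nop56, Nop58 and the methyltransferase fibrillarin, and an antisense stretch that pairs with the target. In mammals most are cut out of introns of a host gene after splicing, and a few, such as U8, U14 and U22, act in cleavage of the ribosomal RNA precursor rather than, or in addition to, methylation.

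The T cell markers (Cd3d, Cd3e, Cd3g, Lck, Thy1, Ptprc and Rag1) all lay above 1 TPM, the lowest being Rag1 with a mean of 364 TPM. Of 4 B cell markers 0 had a mean of at least 1 TPM, and Ms4a1 was listed at 0. Myeloid markers summed to between 20.6 and 25.5 TPM with Lyz2 listed at 0, and erythroid and epithelial markers summed to at most 0.0431 and 0.46 TPM. Fibroblast markers summed to 46.7 TPM in low density library 1 and to at most 0.536 TPM in the others, so that library stood apart. The part of such cells in the snoRNA values was not tested; without that library the ratio of summed snoRNA TPM, high over low density, was 0.461 rather than 0.526.

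The results turn on 10 snoRNAs in particular, whose sequences are given from GENCODE M21 transcripts (build GRCm38), with the first TGATGA, the core of box C, and the last CTGA, box D, in capitals. Snord96a, Snord104 and Snord16a had the highest mean TPM. Snord22 is U22, which acts in pre-rRNA cleavage, and Snord12, Snord65, Snord88a and Snord88c are members that were much lower at high density. Snord71 and Snord98 were higher at high density. Snord96a, Snord104 and Snord65 lie on chromosome 11, Snord88a and Snord88c on chromosome 7, and Snord16a, Snord22, Snord12, Snord71 and Snord98 on chromosomes 9, 19, 2, 8 and 10 in that order.
Snord96a: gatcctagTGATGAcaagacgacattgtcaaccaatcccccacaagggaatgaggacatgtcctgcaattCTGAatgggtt
Snord104: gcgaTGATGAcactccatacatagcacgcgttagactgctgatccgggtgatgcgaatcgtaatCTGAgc
Snord16a: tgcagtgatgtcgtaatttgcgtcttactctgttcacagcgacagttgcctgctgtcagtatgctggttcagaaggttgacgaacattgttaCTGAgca
Snord22: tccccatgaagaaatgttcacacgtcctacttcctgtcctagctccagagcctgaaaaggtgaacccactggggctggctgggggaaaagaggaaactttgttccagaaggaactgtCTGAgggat
Snord12: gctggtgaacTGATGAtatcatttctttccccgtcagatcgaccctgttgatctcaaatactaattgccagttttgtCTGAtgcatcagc
Snord65: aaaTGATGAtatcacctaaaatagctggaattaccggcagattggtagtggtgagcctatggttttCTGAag
Snord88a: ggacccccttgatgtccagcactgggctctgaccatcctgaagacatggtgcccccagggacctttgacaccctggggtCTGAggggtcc
Snord88c: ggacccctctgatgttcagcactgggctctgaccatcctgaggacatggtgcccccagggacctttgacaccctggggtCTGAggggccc
Snord71: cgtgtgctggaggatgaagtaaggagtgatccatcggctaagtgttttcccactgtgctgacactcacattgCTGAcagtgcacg
Snord98: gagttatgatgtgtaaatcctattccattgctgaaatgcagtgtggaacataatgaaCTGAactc
The exact letters TGATGA, searched on the RNA's own strand, were found in 49 of the 72 rows (68.1%) and CTGA in 72 of 72. The 2 motifs can share the bases TGA. Among 4940 other small non-coding transcripts of 64 to 238 bases, 7.94% held TGATGA and 48.3% held CTGA, and of 42 Snora transcripts in that range 0 held TGATGA. A missing match, as in Snord16a or Snord98, says only that these letters are not there.

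The table itself gives an estimate of how many reads lay behind each snoRNA value. For short rows, value times the RefSeq length fell on whole multiples of a fixed step in each library. In small RNA rows that are not box C/D snoRNAs, 96.4% to 97.9% of the values under 25 steps lay within 0.05 of a whole number. With the step so found, 94.4% to 96.3% of the snoRNA values above 0 in a library came out within 0.1 of a whole number. The exceptions were values of Snord100, Snord53, Snord58b and Snord35b. A read on a row of 68 bases, the median length, was worth 1.15 and 1.21 TPM in the high density libraries and 1.16 and 1.06 TPM in the low density libraries. These counts are called implied reads below, and they may be reads or read pairs. Of the 72 rows, 35 had a mean of at least 10 implied reads, 24 had fewer and 13 were listed at 0 in every library.

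Box C/D snoRNA rows together took a smaller share of the table at high density. They summed to 1501 and 1367 TPM in the high density libraries, against 2342 and 3110 TPM in the low density libraries. Both high density libraries lay below both low density libraries, with means of 1434 ± 95.1 and 2726 ± 543 TPM (SD, n = 2 each), a ratio of 0.526 at high over low density. The implied reads summed to 1377 and 1174 at high density and to 2162 and 3098 at low density. They follow from the TPM values and add only the depth. Fewer snoRNA molecules per cell and more of other RNA cannot be told apart in a share of the table, nor can fewer cells of a type and less RNA per cell. Whether short RNA was recovered alike in every library is not known here and was not tested. The number of rows above 0 was 54 and 55 at high density and 54 and 56 at low density. Snord96a alone held 15.99% and 19.8% of the snoRNA sum in the high density libraries and 19.3% and 16.7% in the low density libraries.

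**Figure D1:**
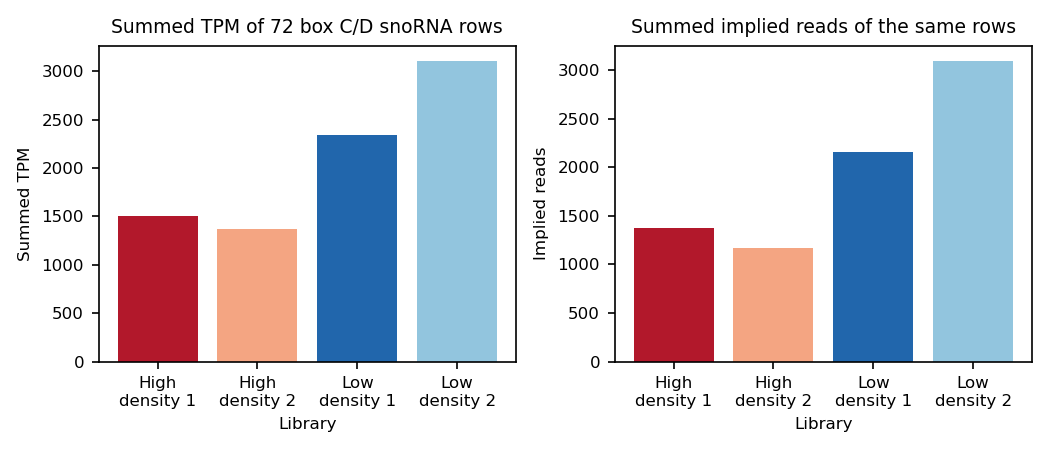
Summed TPM (left, axis from 0) and summed implied reads (right, axis from 0) of the 72 box C/D snoRNA rows in each of the 4 libraries, 1 bar per library. The high density bars, at 1501 and 1367 TPM, are lower than the low density bars, at 2342 and 3110 TPM.

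High and low density were set against each other with limma on log2(TPM + 1), in a fit over the 10936 rows whose mean reached 1 TPM, and 57 of the 72 snoRNA rows passed this filter. The lowest row inside it was Snord23, with a mean of 1.02 TPM, and the highest outside was Snord82, with 0.576 TPM. The log2 fold change, high minus low density on the log2(TPM + 1) scale, was below 0 in 46 of the 57 (80.7%), against 40.3% of all rows tested. Its median was −0.87 over the snoRNA rows and 0.12 over all rows tested. At a limma adjusted p under 0.05 (Benjamini-Hochberg over all rows), 17 of the 57 were called lower at high density, beside 2.11% of all rows tested, and 2 were called higher, beside 4.57%, so that 19 were called in either direction, beside 6.68%. A log2 fold change of −1 or less was found in 23 of the 57, beside 3.17% of all rows tested. In 34 of the 57 both high density libraries lay below both low density libraries, beside 20.0% of all rows tested, and in 4 both lay above, beside 34.7%. These counts are a description, since this contrast was known when the class was put forward, and nothing is read from them.

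The number called depended on each library. Without high density library 1, 29 snoRNA rows were called lower and 5 higher, beside 745 lower and 2525 higher of all 10936 rows. Without high density library 2 the counts were 24 and 6, beside 1193 and 1227 of all rows. When low density library 1 was left out they were 10 and 1, beside 86 and 234, and when low density library 2 was left out 3 and 0, beside 88 and 145. In these fits the lone library of a group is assumed to vary like the other group. With each library centred on its median, which moved the median of all rows to −0.06, 6 were called lower and 0 higher, beside 154 and 160 of all rows, and after quantile normalisation 7 and 0, beside 144 and 216. The counts over all rows thus moved as well. Among the 35 rows with a mean of at least 10 implied reads, 13 were called lower and 1 higher, beside 2.11% and 4.57% of all rows tested, and the median was also −0.87.

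**Figure D2:**
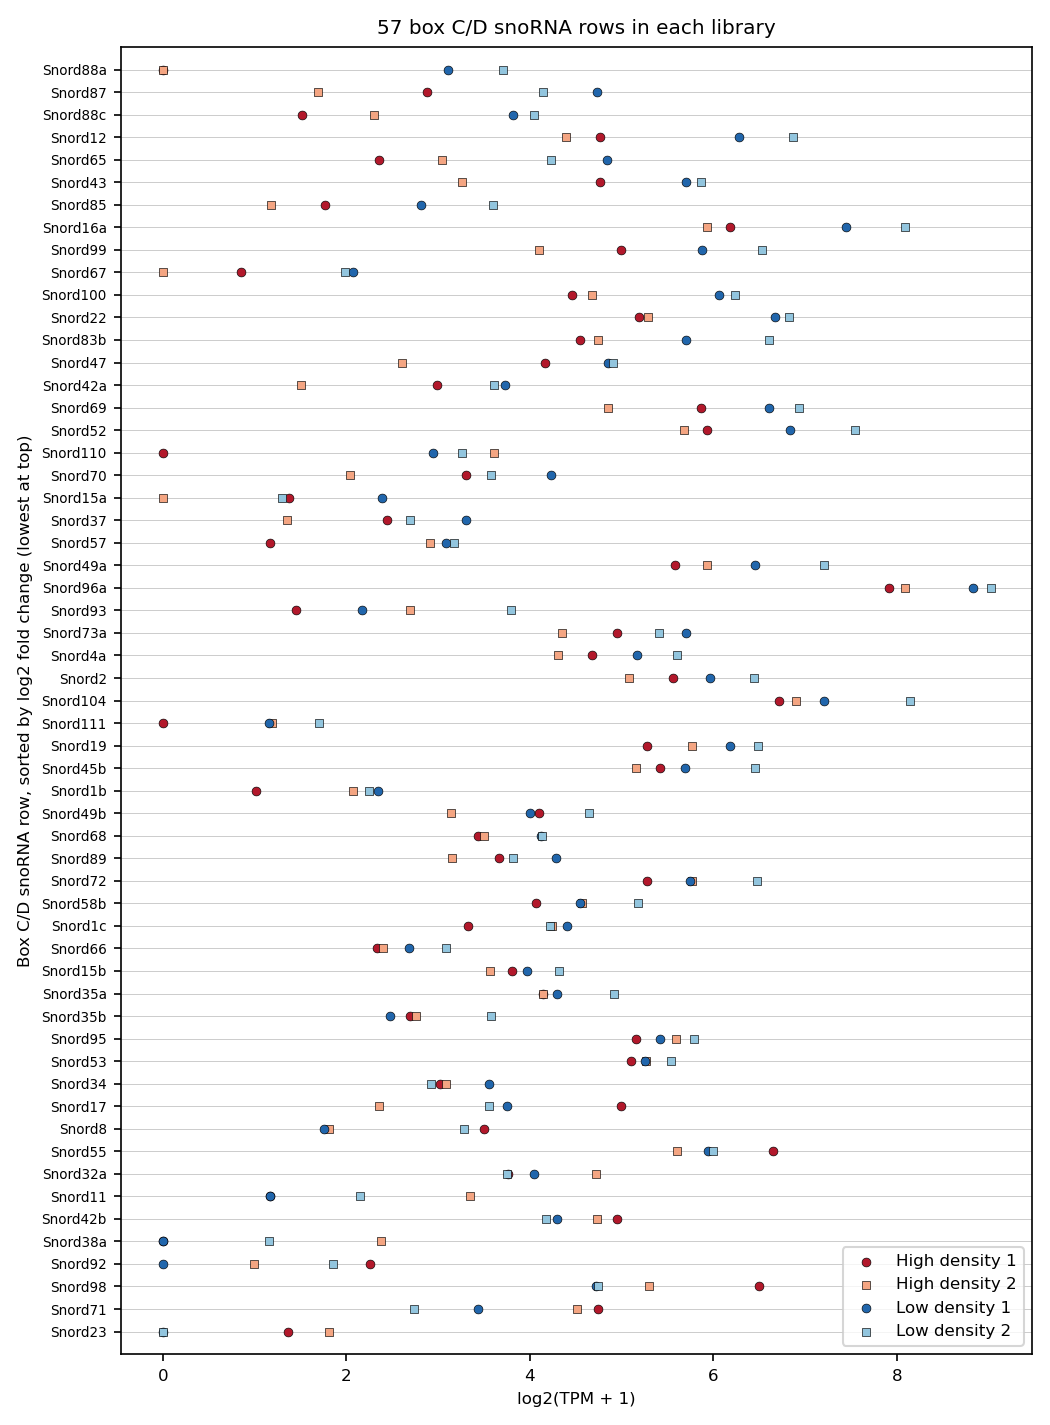
log2(TPM + 1) (x) of the 57 tested box C/D snoRNA rows (y), sorted by log2 fold change with the lowest at the top; each row has 1 point per library, red and orange for high density and dark and light blue for low density. In 34 rows both high density points lie left of both low density points, and in 4 rows they lie right.

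The most abundant row was Snord96a, whose human counterpart guides methylation of the short RNA of the large ribosomal subunit. It had 240 and 271 TPM at high density, against 453 and 518 TPM at low density. The groups did not overlap, and the row rested on 236 and 253 implied reads at high and 443 and 552 at low density, the deepest of the class. Its log2 fold change was −0.92 ± 0.22 (SE). Snord104, a guide for the large subunit in human, had 104 and 119 TPM at high density, against 147 and 281 TPM at low density. Low density library 2 was far above the other 3 libraries, and the log2 fold change was −0.87 ± 0.30 (SE).

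Snord16a, a guide for small-subunit rRNA in human, had 71.4 and 59.8 TPM at high density, against 173 and 272 TPM at low density, a log2 fold change of −1.72 ± 0.27 (SE). The implied reads were 83 and 66 against 200 and 342. Snord52 had 59.7 and 50.3 TPM at high density, against 113 and 185 TPM at low density. Snord49a, one of 3 snoRNAs in the non-coding gene 2410006H16Rik, had 46.7 and 59.8 TPM at high density, against 86.3 and 147 TPM at low density. Neither had overlapping groups, and the log2 fold changes were −1.39 ± 0.28 for Snord52 and −1.08 ± 0.29 for Snord49a (SE).

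Snord69 and Snord19 lie in introns of Gnl3, which encodes the nucleolar GTPase nucleostemin. Snord69 had 57.1 and 27.9 TPM at high density, against 96.1 and 121 TPM at low density. Snord19 had 37.7 and 53.4 TPM at high density, against 71.4 and 88.3 TPM at low density. The order of the high density libraries was thus opposite in these neighbours. The log2 fold changes were −1.41 ± 0.32 for Snord69 and −0.81 ± 0.27 for Snord19 (SE); the difference between them was not tested. Snord55 was the exception among the 10 most abundant rows. It had 99.4 and 47.5 TPM at high density, against 60.6 and 63.0 TPM at low density, so that the groups overlapped (log2 fold change 0.15 ± 0.32 SE).

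The largest negative log2 fold changes without overlap were found in Snord88a, Snord87, Snord88c, Snord12, Snord65, Snord43, Snord85 and Snord16a. Snord88a was listed at 0 in both high density libraries and had 7.65 and 12.05 TPM at low density, from 7 and 12 implied reads. Its low density mean was 5.88 times a floor of 3 reads over the high density pair. That ratio leaves out the counting error of the low density reads. The fitted log2 fold change of −3.41 depends on the pseudocount, and neither value is a bound. Snord88c, which shares 94.4% of its bases with Snord88a, had 1.86 and 3.92 TPM at high density, against 13.1 and 15.5 TPM at low density. Both lie in 2410002F23Rik, Snord88a over an annotated exon of it, and reads may have been split between these near copies.

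Snord12, in the non-coding gene Zfas1, had 26.1 and 20.0 TPM at high density, against 76.3 and 116 TPM at low density, from 22 and 16 implied reads against 64 and 106. It was the deepest of these rows after Snord16a, and its log2 fold change was −1.997 ± 0.286 (SE). Snord87, in the non-coding gene Snhg6, had 6.35 and 2.23 TPM at high density, against 25.5 and 16.6 TPM at low density. Snord65, in 2410006H16Rik, had 4.12 and 7.23 TPM at high density, against 27.6 and 17.8 TPM at low density. For both, the high density values came from 2 to 6 reads, and their 95% Poisson intervals (0.242 to 7.22 reads for the lowest) are wide. Snord43, in the ribosomal protein gene Rpl3, had 26.1 and 8.58 TPM at high density, against 50.8 and 57.2 TPM at low density. Snord85 had 2.41 and 1.27 TPM at high density, against 6.06 and 11.1 TPM at low density, from 2 and 1 implied reads against 5 and 10. The high density libraries differed from each other by 3-fold in Snord43, from 16 and 5 reads.

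Only 4 tested rows had both high density libraries above both low density libraries, namely Snord23, Snord71, Snord98 and Snord42b. Snord71 lies in an intron of Ap1g1, an adaptor of vesicle coats, and in human it also guides methylation of the short RNA of the large subunit. It had 25.7 and 21.9 TPM at high density, against 9.84 and 5.65 TPM at low density. Its log2 fold change was 1.54 ± 0.32 (SE), from 21 and 17 implied reads against 8 and 5. Snord98, in Ccar1, had 89.5 and 38.3 TPM at high density, against 25.3 and 25.8 TPM at low density, from 32 and 13 implied reads against 9 and 10. The gap rested mainly on high density library 1, and the log2 fold change was 1.17 ± 0.35 (SE). Snord42b, in Rpl23a, had 29.9 and 25.5 TPM at high density, against 18.6 and 17.1 TPM at low density (log2 fold change 0.60 ± 0.27 SE). Snord23 had 1.58 and 2.50 TPM at high density and was listed at 0 at low density. It rested on 2 and 3 implied reads. Its high density mean was 1.78 times a floor of 3 reads over the low density pair. That ratio leaves out the counting error of the high density reads and is no bound.

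Among the snoRNAs of pre-rRNA cleavage, Snord22 (U22) had 35.4 and 37.9 TPM at high density, against 101 and 112 TPM at low density. The groups were far apart and each pair was tight, with 57 and 58 implied reads at high and 162 and 196 at low density, and the log2 fold change was −1.52 ± 0.24 (SE). Snord118 (U8) had 1.80 TPM, from 3 reads, in high density library 2 and was listed at 0 in the other 3 libraries. Snord14a, Snord14c and Snord14d, 3 copies of U14, were listed at 0 throughout. U8 and U14 are needed by every growing cell, so a listed 0 is not read as absence. Snord14c and Snord14d share 97.7% of their bases, and of the 13 rows listed at 0, 3 had another annotated small RNA with at least 90% of bases in common, against 8 of the 59 other rows. Snord116l1 and Snord64, of the imprinted cluster known for expression in brain, were among the rows listed at 0, and Snhg14, the host of Snord116l1, had at most 0.0325 TPM in any library.

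Levels within the class depend on the length used as divisor. Row lengths that gave whole reads were those of RefSeq, with a median of 68 bases and a range of 28 to 221, while the GENCODE transcripts of the same snoRNAs had a median of 80 bases and a range of 64 to 238. Of the 72 rows, 57 were longer in GENCODE, 8 of them by at least 1.5 times. Snord98 was the extreme. It has 65 bases in the sequence printed above and 28 in RefSeq, so its mean was 44.7 TPM as deposited and 19.3 TPM with the GENCODE length. Snord43, which GENCODE lists as a miRNA gene of 108 bases against 48 in RefSeq, had a mean of 35.7 TPM as deposited and 15.9 TPM with the GENCODE length. The 5 most abundant rows kept their order, and the rank correlation between both scales was 0.989 over the 59 rows above 0. A change of length multiplies all 4 libraries alike and leaves a ratio of TPM between densities as it is. The filter and log2(TPM + 1) do depend on length. With the GENCODE length, Snord23 and Snord111 had means of 0.926 and 0.859 TPM, below the filter of 1 TPM. Across the 57 tested rows the log2 fold change had a rank correlation of 0.09 with RefSeq length, 0.09 with GC content and −0.17 with mean implied reads, a description over rows that share 4 libraries.

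**Figure D3:**
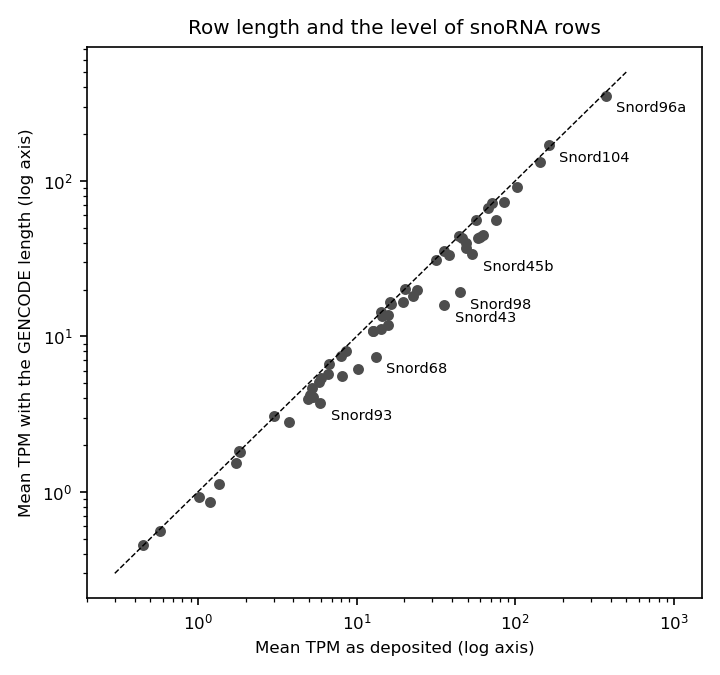
Mean TPM over the 4 libraries as deposited (x, log axis) and with the GENCODE transcript length as divisor (y, log axis) for the 59 box C/D snoRNA rows above 0; the dashed line marks equal values. Snord98 lies furthest below the line, at 44.7 against 19.3 TPM.

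Host genes were found by position, as the gene on the same strand that spans the snoRNA in GENCODE M21. For 68 of the 72 rows there was 1 such gene in the table, 48 different genes in all, of which 36 are protein-coding and 13 of those encode ribosomal proteins. Of the 68, 63 lay within introns and 5, among them Snord22 and Snord99, overlapped an annotated exon of the host, where reads of both cannot be told apart. For Snord104, Snord118, Snord64 and Snord89 no spanning gene was in the table. TPM of a snoRNA row does not separate the mature RNA from reads of the host's unspliced transcript.

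Host genes had log2 fold changes centred near 0, while most of their snoRNAs were lower at high density. Of 46 hosts tested, limma called 4 lower (Hspa8, Gnl3, 2700038G22Rik and Eif4g1) and 1 higher (2410006H16Rik), and their median log2 fold change was 0.02. These are 8.70% and 2.17% of the hosts, beside 2.11% and 4.57% of all rows tested. Among the 55 pairs of a snoRNA row and a host that were both tested, the snoRNA's log2 fold change was below its host's in 41. It was above the host's in 14, and the median difference was −0.65. The contrast of the snoRNA rows was known when the class was put forward, so this excess is in part fixed by that choice. Nothing is read from it. Across the 55 pairs the log2 fold changes had a Pearson correlation of −0.05 and a rank correlation of −0.01, a description over pairs that share libraries and, in part, hosts.

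**Figure D4:**
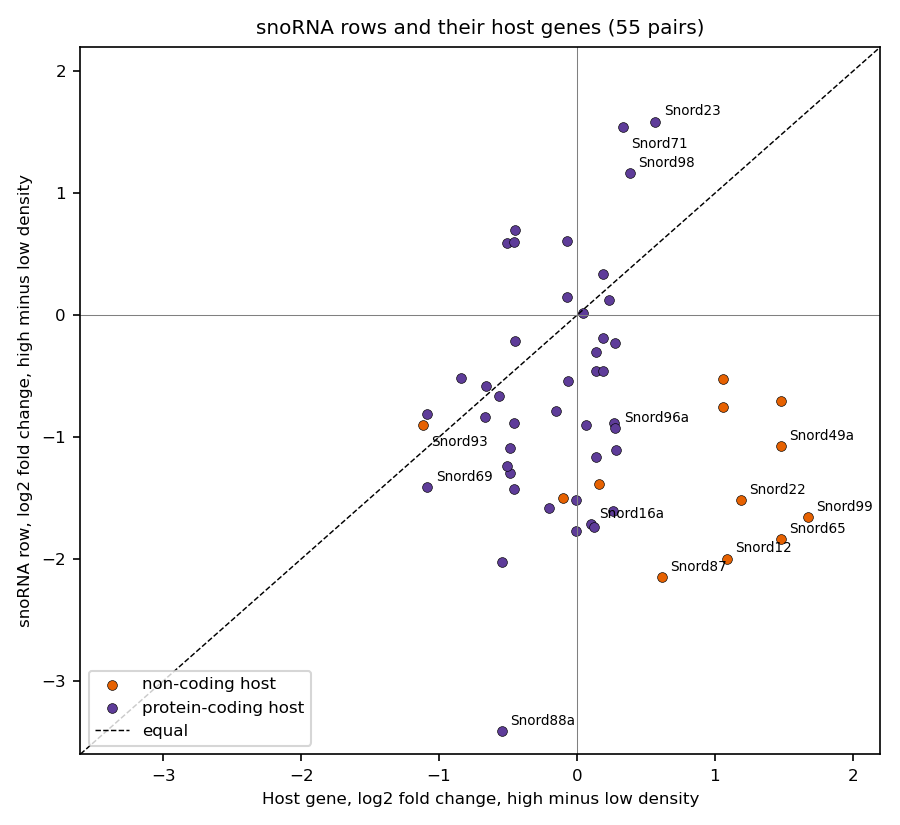
log2 fold change, high minus low density, of the host gene (x) and of the snoRNA row (y) for 55 pairs, with non-coding hosts in orange and protein-coding hosts in purple; the dashed line marks equal values. 41 points lie below the line, and the non-coding hosts with positive values hold snoRNAs with negative ones.

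The median gap was wider for the non-coding hosts, RNAs whose spliced product has no long reading frame. In 12 such pairs the snoRNA lay below its host in 11, with a median difference of −2.37. For protein-coding hosts it was 30 of 43 and −0.48, and the difference between these host types was not tested. The 12 pairs are not independent, since 2410006H16Rik enters 3 times and 1810032O08Rik 2 times. In 2 of them, Snord22 and Snord99 overlap an annotated exon of the host. The host 2410006H16Rik had 1625 and 3151 TPM at high density, against 764 and 862 TPM at low density. Of the 46 hosts tested it was the 1 called higher (1.48 ± 0.30 SE on the log2 scale, limma adjusted p = 0.0133), while its snoRNAs Snord65, Snord49a and Snord49b had log2 fold changes of −1.84, −1.08 and −0.70. The host's call was lost without low density library 1 or 2 (limma adjusted p = 0.0967 and 0.0532), after median centring (0.0923) and after quantile normalisation (0.0859), in a range of 2e-06 to 0.528 over all alternatives.

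Zfas1 had 596 and 1328 TPM at high density, against 383 and 458 TPM at low density, whereas its Snord12 was about 4.18-fold lower at high density. Snhg1 had 827 and 2990 TPM at high density, against 610 and 779 TPM at low density. Its Snord22 differed little between the high density libraries, at 35.4 and 37.9 TPM, although the host differed between them by more than 3-fold. Snhg6 had 944 and 1151 TPM at high density, against 593 and 779 TPM at low density, with Snord87 lower at high density. All 3 hosts lay above the low density pair in both high density libraries, as did 34.7% of all rows tested. None of the 3 was called (limma adjusted p = 0.0698 for Zfas1, 0.135 for Snhg1 and 0.143 for Snhg6). The outcome changed under 3, 2 and 1 of 14 alternatives in that order, each time including the fit without high density library 1. That fit rests on high density library 2 alone, and many more rows of the whole table were called higher in it. Snhg12 with Snord99, added after its values were seen, had 249 and 1125 TPM at high density, against 155 and 177 TPM at low density, while Snord99 had 30.8 and 16.2 TPM against 57.6 and 91.6 TPM. The groups overlapped in 1110038B12Rik, the host of Snord52, which had 428 and 731 TPM at high density, against 464 and 538 TPM at low density.

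**Figure D5:**
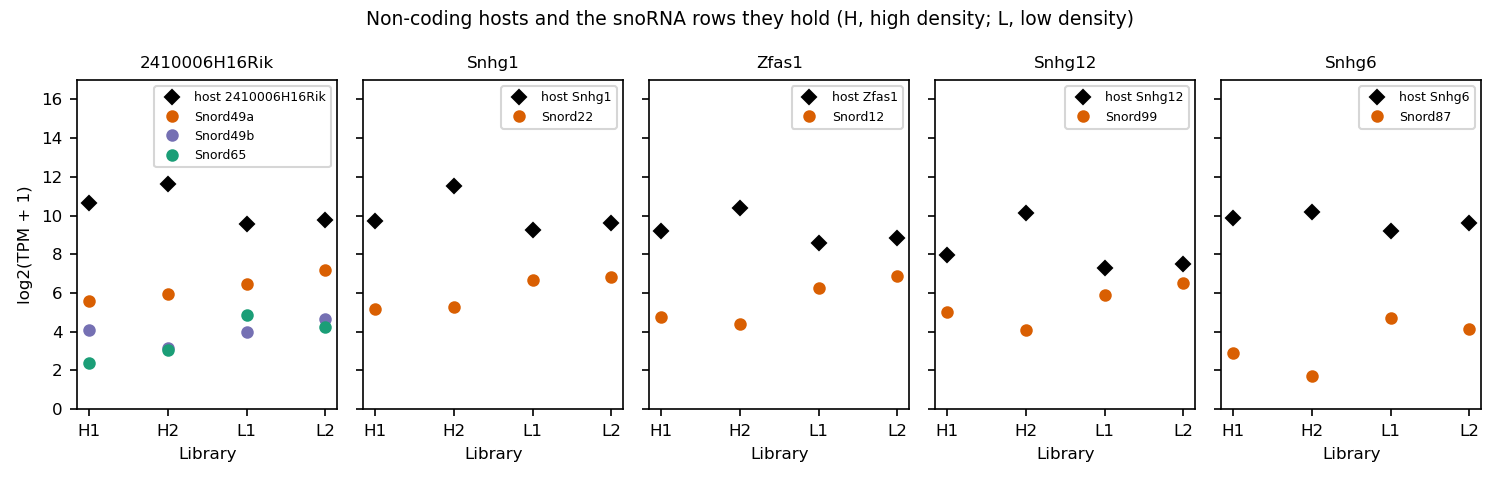
log2(TPM + 1) of 5 non-coding host genes (black diamonds) and the snoRNA rows they hold (coloured circles) in high density libraries 1 and 2 (H1, H2) and low density libraries 1 and 2 (L1, L2). The 5 shown are those of 10 tested non-coding hosts that are higher in both H1 and H2 than in L1 and L2. Of the hosts not shown, 4 overlap and 1 is lower. The snoRNA rows shown are lower in H1 and H2, except for Snord49b, which overlaps.

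Hosts that hold several snoRNAs held neighbours with different values. Rpl13a, a protein of the large ribosomal subunit, holds Snord32a, Snord33, Snord34 and Snord35a, of which Snord32a, Snord33 and Snord35a are known from hamster and mouse cells for a role in lipid-induced stress. Snord32a had 12.6 and 25.4 TPM at high density, against 15.6 and 12.5 TPM at low density, and Snord33 was listed at 0. Snord34 had 7.12 and 7.49 TPM at high density, against 10.7 and 6.57 TPM at low density, and Snord35a had 16.7 and 16.7 TPM at high density, against 18.6 and 29.2 TPM at low density. Rpl13a itself had 6271 and 5436 TPM at high density, against 4589 and 5735 TPM at low density. Rpl23a holds Snord42a, Snord42b and Snord4a, whose log2 fold changes were −1.42, 0.60 and −0.89, while the host had −0.45 ± 0.26 (SE). The snoRNA with the positive value, Snord42b, lies in the same host gene as those with negative ones. In 1810032O08Rik, Snord1a was listed at 0, and Snord1b and Snord1c, which share 97.4% of their bases, had log2 fold changes of −0.76 and −0.53 beside 1.06 ± 0.55 (SE) for the host. This host had 35.0 and 183 TPM at high density, against 33.9 and 42.5 TPM at low density, so its mean rested on high density library 2.

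No call was made for a ribosomal protein host. Of 13 tested, 0 were called, beside 2.11% lower and 4.57% higher of all rows tested. With so few hosts, 0 calls cannot be told apart from these shares. At an unadjusted limma p under 0.05, 0 were higher and 2 lower, beside 1720 and 849 of all 10936 rows. The hosts' median log2 fold change was −0.07, while their 19 tested snoRNAs had a median of −0.58. Rpl3 had 788 and 761 TPM at high density, against 788 and 765 TPM at low density, whereas its Snord43 and Snord83b had log2 fold changes of −1.77 and −1.51. Rpl4, host of Snord16a, had 5705 and 4956 TPM at high density, against 5029 and 4900 TPM at low density. Rack1, a scaffold protein of the small ribosomal subunit, holds the most abundant row, Snord96a, together with Snord95. It had 5256 and 4455 TPM at high density, against 3927 and 4054 TPM at low density, and Snord95 overlapped between groups, with 34.6 and 47.3 TPM at high density and 41.7 and 54.2 TPM at low density. Ribosomal protein genes share sequence with many pseudogenes, so their levels, which ran from 17.9 TPM for Rps13 to 6271 TPM for Rpl13a, are uncertain.

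Hspa8, the constitutive cytosolic chaperone, had the largest negative host value, at 747 and 282 TPM at high density, against 1973 and 1489 TPM at low density (−1.90 ± 0.37 SE on the log2 scale, limma adjusted p = 0.0123). Its snoRNAs are Snord14c and Snord14d, both listed at 0. The call was lost under 4 of 14 alternatives, with a limma adjusted p of 0.0807 for quantile normalisation, 0.0884 for robust moderation, 0.0995 for median centring and 0.566 for no filter, in a range of 2.72e-10 to 0.566 over all alternatives. Gnl3 had 153 and 279 TPM at high density, against 410 and 470 TPM at low density (limma adjusted p = 0.0453), and both of its snoRNAs had negative log2 fold changes. It lost its call under 7 of 14 alternatives, among them without low density library 1 or 2 (limma adjusted p = 0.113 and 0.402), in a range of 0.00113 to 0.592.

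Of 15 tested genes for proteins that bind box C/D snoRNAs or assemble them, 2 were called lower and 0 higher. These counts stand beside 2.11% and 4.57% of all rows tested. At an unadjusted limma p under 0.05, 4 of the 15 were lower and 0 higher, beside 849 and 1720 of all 10936 rows. Snu13, the protein that first binds the box C/D fold, had 356 and 441 TPM at high density, against 734 and 793 TPM at low density (−0.94 ± 0.23 SE on the log2 scale, limma adjusted p = 0.03). Nolc1, which carries snoRNPs within the nucleolus and Cajal bodies, had 96.7 and 170 TPM at high density, against 287 and 284 TPM at low density (−1.15 ± 0.28 SE, limma adjusted p = 0.0321). Both calls were lost without either low density library, with limma adjusted p of 0.237 and 0.482 for Snu13 and 0.149 and 0.229 for Nolc1, in ranges of 0.00476 to 0.482 and 0.000802 to 0.527 over all alternatives. Without high density library 2 more of the 15 were called lower, and so were more rows of the whole table.

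Fbl, the methyltransferase fibrillarin, had 150 and 198 TPM at high density, against 295 and 275 TPM at low density, and did not pass (−0.72 ± 0.24 SE on the log2 scale, limma adjusted p = 0.0915). The scaffold proteins Nop56 and Nop58 differed more between the high density libraries than between groups. Nop56 had 258 and 516 TPM at high density, against 490 and 534 TPM at low density, and Nop58 had 226 and 598 TPM at high density, against 513 and 534 TPM at low density. Ruvbl1, an ATPase of the assembly complex, had 40.1 and 43.5 TPM at high density, against 72.9 and 77.6 TPM at low density (limma adjusted p = 0.0629). Of the 15 genes, 14 had a log2 fold change below 0, beside 40.3% of all rows tested, with a median of −0.43. The 6 box H/ACA protein genes, fixed as a list apart, had a median of −0.87. Among them 2 were called lower (Dkc1 and Nhp2), beside 2.11% of all rows tested.

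Box H/ACA and Cajal body RNA rows, the other large class of small nucleolar RNA, were also mostly lower at high density. Of 37 tested, 31 had a log2 fold change below 0, 11 were called lower and 0 higher, beside 2.11% and 4.57% of all rows tested, with a median log2 fold change of −1.13, beside −0.87 for box C/D rows and 0.12 for all rows tested. A difference between the classes was not tested.

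The libraries of a group were less alike in the snoRNA rows than in the table. Of the 57 tested snoRNA rows, 22 had a mean under 10 implied reads. The part of counting error in this difference was not tested. The pooled SD of log2(TPM + 1) between the high density libraries was 0.77 over the 57 snoRNA rows and 0.43 over all rows tested, and between the low density libraries it was 0.47 and 0.28. Low density library 2 exceeded low density library 1 in 40 of the 57 rows, by a median of 0.30 on the log2 scale, while over all rows tested it was lower by a median of 0.12. The ratio of summed snoRNA TPM, high over low density, was 0.461 when low density library 1 was left out and 0.612 when low density library 2 was left out.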

How the data were processed

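Total RNA of BEKO cells was measured in 4 libraries, 2 at high and 2 at low density; the labels' protocols name a column kit and a strand-specific library. The authors deposited TPM values in 1 table of 25630 rows, and each column sums to 1000000. Per the submitters' processing notes, the build is mm9 and DESeq2 1.2.10 was named, with no role. The aligner, counter and row lengths behind the TPM are not known here. Columns were tied to samples by the column name in each sample's description.

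On log2(TPM + 1), limma 3.58.1 (R 4.3.3) compared high with low density, with a mean-variance trend, over the 10936 rows whose mean reached 1 TPM, with Benjamini-Hochberg adjustment over these rows. The fit has 2 residual degrees of freedom, to which moderation added 9.53, and it was tested on simulated data. An exact permutation test of 2 against 2 cannot go below p = 0.333 and was not used. The members and lists were chosen with earlier results of these data known.

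Implied reads are TPM times RefSeq length (GRCm38.p6) divided by the library's step, taken from small RNA rows other than the members. They describe depth, and no count test was run. Poisson intervals (95%) and floors (3 reads over a group) cover counting error only. Hosts, GENCODE lengths and sequences came from GENCODE M21 on GRCm38, another build than mm9, so no coordinates are given. All 72 symbols matched both annotations.

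The rows named are the 10 of highest mean TPM, up to 8 largest positive and 8 largest negative log2 fold changes without overlap, the snoRNAs of pre-rRNA cleavage, imprinted rows, their hosts, hosts of at least 3 rows with the rows they hold, the 4 core proteins and up to 4 further protein genes of smallest p. Others were picked after their values were seen. Alternatives were other pseudocounts, filters, scalings and variance models, a replicate block and leaving out each library. The hosts of some named rows are not reported here.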

Additional observations from a re-analysis of the deposited data

How the results depend on the processing

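The count of rows called over the table was 731 (500 higher, 231 lower), with 0 when no filter was applied (2565 at an unadjusted limma p under 0.05), 314 after median centring (160 higher, 154 lower), 360 after quantile normalisation (216 higher, 144 lower) and 233 to 3270 with 1 library left out. The 19 snoRNA calls became 0 with no filter (17 at an unadjusted p under 0.05), 6 after median centring, 7 after quantile normalisation and 3 to 34 with 1 library left out. The 5 host calls became 3 with log2(TPM + 5), 8 with a mean of at least 5 TPM, 2 without the trend, 0 with no filter, after median centring or after quantile normalisation (5, 15 and 13 at an unadjusted p under 0.05), and 2 to 14 with 1 library left out. The 2 protein calls became 0 with no filter, after quantile normalisation and without the trend (3, 6 and 4 at an unadjusted p under 0.05), and 0 to 9 with 1 library left out. The cause was not tested. The snoRNA median of −0.87 was −0.55 with log2(TPM + 5), where the larger pseudocount shrinks low rows, and lay between −0.96 and −0.66 with 1 library left out. The ratio of sums, 0.526, lay between 0.461 and 0.612.

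Replicate numbers are shared between the groups, and deviations of same-numbered libraries had a correlation of 0.0416 over 10936 rows. With 2 libraries per group, this value cannot tell whether same-numbered libraries share a culture or a day. With the replicate block 937 rows, 25 snoRNA rows (3 higher, 22 lower), 9 hosts (5 higher, 4 lower) and 2 protein genes were called, and the snoRNA median was −0.87. Restriction to snoRNA rows with a mean of at least 10 implied reads, chosen after seeing the data, gave 14 calls among 35 rows. Of all rows tested, 6.68% were called. For the named host and protein genes, 318 values under the alternatives stayed on their side of the threshold, 27 calls were lost and 19 gained. For the named snoRNA rows, 263 log2 fold changes moved by less than 1 SD between libraries and 15 by that much or more. These counts are no measure of stability. Leaving out 1 library cannot move a value by more than this SD, and other filters or variance models leave it unchanged. Of named genes and rows called in the main fit, 0 changed sign. Snord17, neither named nor called there, changed sign with the high density library left out. It had 30.8 and 4.10 TPM at high density, against 12.5 and 10.8 TPM at low density. Depth limits 24 snoRNA rows above 0 to under 10 implied reads on average.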
